A study of Mus musculus with 12 samples.

Results

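The receptors for interferons (IFNs) and the signalling proteins attached to them were followed through 9 genes: Ifnar1, Ifnar2, Ifngr1, Ifngr2, Jak1, Jak2, Tyk2, Stat2 and Socs1. They were picked by name, with earlier results of these data known, and all 9 were found among the 24421 genes listed in each library. The libraries hold RNA-seq of bone marrow-derived macrophages (BMMs), the precursors of bone-resorbing osteoclasts, from C57BL/6 mice in which the microRNA miR-182 was removed from or added to myeloid cells. There were 6 conditions with 2 libraries each. In the loss of function experiment, WT mice had the genotype Mir182+/+LysMcre(+) and Mir182ΔM/ΔM mice the genotype Mir182flox/floxLysMcre(+). BMMs of both were grown with macrophage colony-stimulating factor (M-CSF) for 3 days and then kept without RANKL (basal) or given RANKL, the cytokine that drives osteoclast differentiation, for 5 days. In the gain of function experiment, Control mice had the genotype LysMcre(+) and Mir182mTg mice the genotype LSL-Mir182LysMcre(+), in which Cre switches on a copy of Mir182 placed in the Rosa26 locus. Both were sequenced without RANKL. All 12 libraries therefore come from mice with LysMcre, a Cre recombinase under the lysozyme M (Lyz2) promoter that acts in myeloid cells. The methods describe sex- and age-matched littermates, and the ages of these mice are not given in the sources used here. In all 6 conditions the labels give poly-A RNA for replicate 1 and total RNA for replicate 2, and different alignment programs for each.

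Type I IFNs such as IFN-β bind a receptor of Ifnar1 and Ifnar2, whose cytoplasmic tails carry the kinases Tyk2 and Jak1. The kinases phosphorylate STAT proteins, among them Stat2, which joins Irf9 in the complex ISGF3, and ISGF3 binds the interferon-stimulated response element (ISRE) in front of its target genes. IFN-γ, the type II IFN, binds Ifngr1 and Ifngr2 with Jak1 and Jak2 and acts through the gamma-activated site (GAS), while Socs1 is an inducible inhibitor of these kinases. IFNs restrain osteoclast formation, and RANKL itself induces IFN-β in precursors.

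The sequences that connect these genes to miR-182 and to IFN signalling are shown first. The mature miR-182-5p, encoded on the minus strand at chr6:30165962-30165986, has its seed (bases 2 to 8) in capitals, from RefSeq on the build GRCm38.p6.
miR-182-5p: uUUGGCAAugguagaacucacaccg
Pairing with that seed needs the letters TTGCCAA in a 3′ UTR. None of the 9 genes holds them in any annotated 3′ UTR of GRCm38, and 11.5% of 19529 genes do. The form TGCCAAA was also in none of the 9, against 12.9% of all genes. The shorter TGCCAA was in 4 of the 9, Ifnar2, Ifngr1, Ifngr2 and Jak2, against 31.8% of all genes. In the 300 bases from 250 before to 50 after each RefSeq start, the ISRE letters TTTCNNTTTC on either strand were in 2 of the 9 genes, against 3.91% of 17224 genes. The GAS letters TTCNNNGAA were in 2 of the 9, against 9.27%. The matches are printed 5′ to 3′ along the gene's strand with the matching letters in capitals. Those of Socs1 overlap each other and lie on the opposite strand, so they read as the reverse complement of the ISRE.
Stat2, ISRE, chr10:128270268-128270293, plus strand: caccctggTTTCAGTTTCctttccct
Socs1, ISRE, chr16:10785602-10785627, minus strand: acttgccgGAAAGAGAAAccgaaagc
Socs1, ISRE, chr16:10785596-10785621, minus strand: cggaaagaGAAACCGAAAgcgggggt
Ifnar1, GAS, chr16:91485202-91485226, plus strand: cgggggcgTTCACGGAAggggcggg
Ifnar2, GAS, chr16:91372561-91372585, plus strand: ccaaggccTTCCTGGAAgaagagag
The Stat2 match begins 222 bases before the start, those of Socs1 83 and 77 bases, that of Ifnar1 5 bases and that of Ifnar2 214 bases. Such a match describes the letters and does not show that a factor binds there.

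Reads counted on genes ranged from 24951280 to 33050619 per library, and 3 reads correspond to 0.0908 to 0.120 CPM (counts per 1000000 reads on genes). Mir182 itself had no read in the WT and Control libraries, so the deletion could not be checked in these data, while the Mir182mTg libraries had 79 and 123 reads. The 7 macrophage markers summed to 5680 to 8650 CPM in all libraries. The 7 osteoclast markers summed to 39.6 to 74.8 CPM in the basal libraries, 9900 to 10200 in WT RANKL and 3050 to 3060 in Mir182ΔM/ΔM RANKL. In cultures of mixed cells, fewer cells of a type and less RNA per cell cannot be told apart. The markers of erythroid cells were at 0 in every library. T cell markers summed to 0.0958 to 16.5 CPM, nearly all of it Cd4, which read 12.1 to 16.5 CPM in the RANKL libraries, 2.80 to 5.08 in WT and Mir182ΔM/ΔM basal and 0.0958 to 0.465 in Control and Mir182mTg, while Cd3e and Cd3d were at 3 reads or fewer. B cell markers summed to 0.263 to 3.67 CPM, mostly Cd79b (0.230 to 3.63), with Ms4a1 at 3 reads or fewer. The 3 endothelial markers summed to 106 to 107 CPM in Mir182ΔM/ΔM RANKL against 4.68 to 26.5 elsewhere, of which Kdr gave 101 CPM in each library. Neutrophil markers summed to 3.35 to 80.9 CPM and stromal markers to 7.14 to 44.3, and the part of these cells in any result was not tested.

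The WT RANKL libraries stood apart from the other libraries of the loss of function experiment. Lyz2, the gene whose promoter drives LysMcre, read 4117 and 4288 CPM in them, against 39.8 to 44.0 in WT basal, 31.2 to 34.6 in Mir182ΔM/ΔM basal and 22.5 to 24.0 in Mir182ΔM/ΔM RANKL. The Control and Mir182mTg libraries read 5783 to 7062. Ifi202b, an IFN-inducible gene, read 0.972 and 1.12 CPM in WT RANKL, 82.1 to 152 in the other 6 libraries of that experiment and 0 to 0.0908 in Control and Mir182mTg. The labels give WT basal and WT RANKL the same genotype. Comparisons with the WT RANKL libraries are therefore set beside those that do not use them, and the part of this difference in any result was not tested.

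On the scale of CPM per kilobase of gene length, which allows levels to be compared between genes, Ifngr1 was the highest of the 9 in every condition, from 73.4 in Mir182mTg basal to 144 in WT RANKL. Socs1 was the lowest in every condition, from 0.340 in WT basal to 1.25 in Mir182ΔM/ΔM RANKL. Jak2 stood just above Socs1 in every condition, at 9.79 to 14.1. For 7 of the 9, the highest condition mean was less than 2 times the lowest. The exceptions were Stat2, with a ratio of 5.05, and Socs1, with 3.67. Of the 45 pairs of conditions that are neighbours in a gene's order, 21 overlapped between their replicates. Neither count was set beside that of all genes, so they describe the 9 alone.

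**Figure D1:**
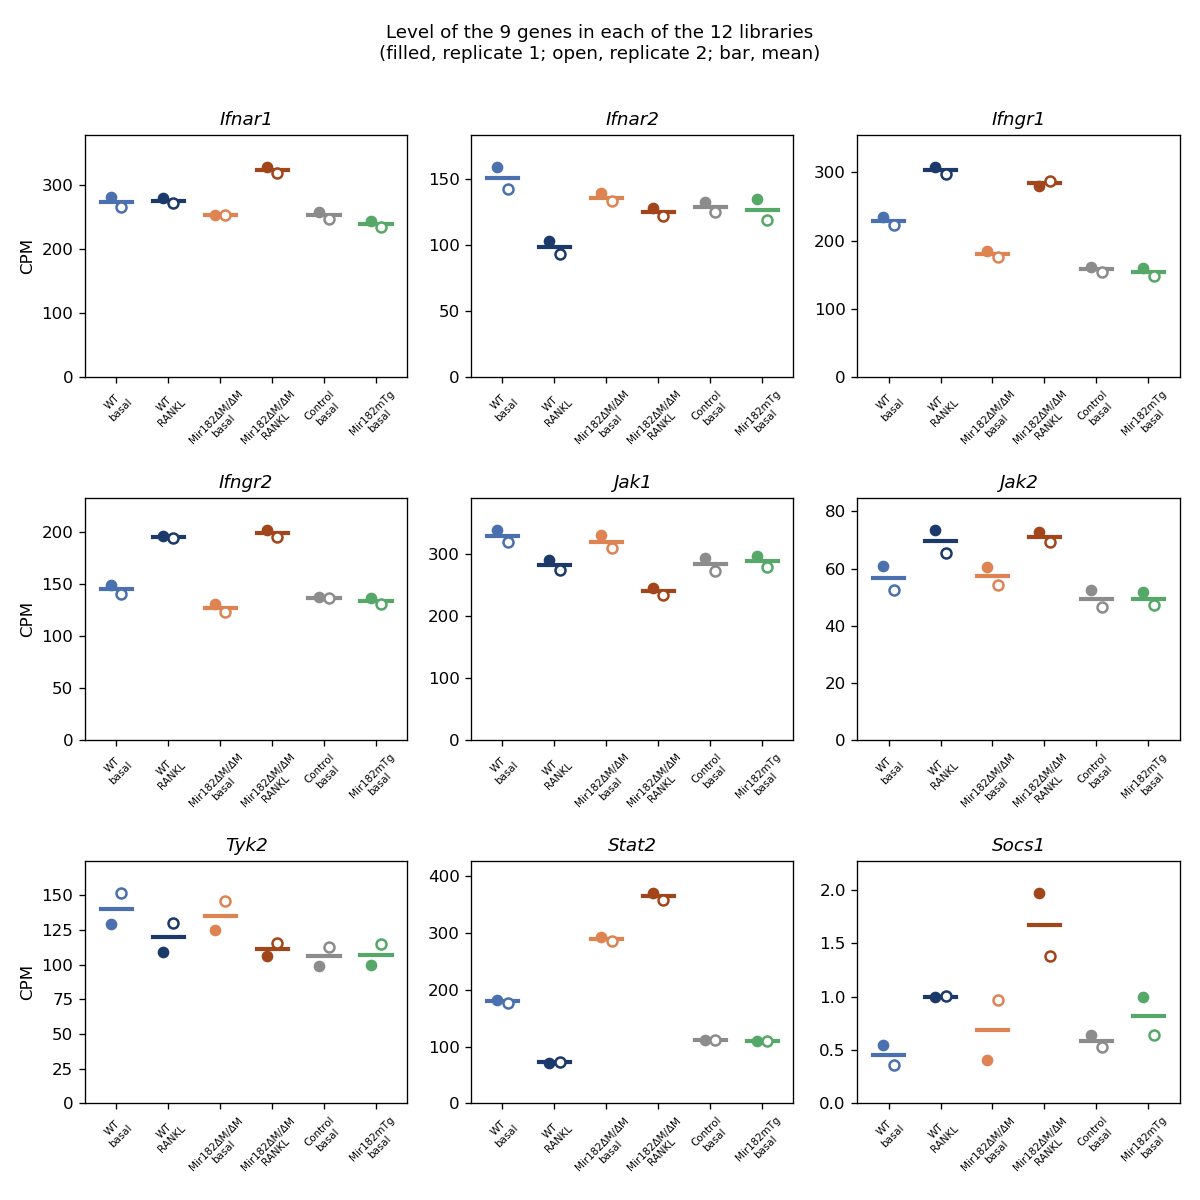
CPM of each gene (vertical axis, linear from 0) in the 6 conditions (horizontal axis), with replicate 1 as filled points, replicate 2 as open points and the mean as a bar. Stat2 spans 72 to 364 CPM between condition means, while Ifnar1 spans 238 to 323.

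Differences below are on the scale of log2(CPM + 1), with their SE, from limma for the loss of function libraries, and adjusted p-values cover all 11691 genes tested. A gene is called when its adjusted p is under 0.05. The study describes its replicates as biological, the labels do not name separate animals, and p-values measure the spread between these libraries. With 2 libraries a condition, the calls were also made without each library in turn, where the lone library left in a condition is assumed to vary like the others. These fits did not account for the replicate number, so the lone library carries the RNA type and aligner of its replicate into the difference.

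Ifnar1 (chr16:91485238-91507441) is the chain of the type I receptor that carries Tyk2. It read 281 and 265 CPM in WT basal and 279 and 271 in WT RANKL. In Mir182ΔM/ΔM it read 253 and 253 CPM basal and 328 and 319 with RANKL. It read 257 and 246 CPM in Control and 243 and 234 in Mir182mTg. The Mir182ΔM/ΔM RANKL libraries were above all other 10, and the WT libraries with and without RANKL overlapped. RANKL raised Ifnar1 in Mir182ΔM/ΔM cells by 0.35 ± 0.058 (adjusted p = 0.00173), and the difference in WT was 0.01 ± 0.058 (adjusted p = 0.874), which turned to a called decrease of -0.20 with TMM factors (adjusted p = 0.0198). TMM factors rescale each library by the bulk of its genes. After RANKL it was higher in Mir182ΔM/ΔM by 0.23 ± 0.058 (adjusted p = 0.0156). That call was lost, at adjusted p of 0.0512 to 0.0865, without either WT RANKL library or without Mir182ΔM/ΔM RANKL replicate 1, with differences of 0.21 to 0.25. Without RANKL the difference between the genotypes was -0.11 ± 0.058 (adjusted p = 0.454), which was called lower with the replicate number as a block (adjusted p = 0.0108).

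Ifnar2 (chr16:91372783-91405589), the chain that binds type I IFN most tightly, read 159 and 143 CPM in WT basal, 103 and 93.7 in WT RANKL, 140 and 133 in Mir182ΔM/ΔM basal, 128 and 122 in Mir182ΔM/ΔM RANKL, 133 and 125 in Control and 135 and 119 in Mir182mTg. The WT RANKL libraries were below the other 10, none of which was below 119 CPM. Ifnar2 fell with RANKL in WT by 0.61 ± 0.082 on the log2 scale (adjusted p = 0.00052), and with the Control libraries as the base the difference was -0.38 ± 0.085 (adjusted p = 0.00412). In Mir182ΔM/ΔM the difference with RANKL was -0.12 ± 0.082 (adjusted p = 0.242), called lower with the block (adjusted p = 0.00454). After RANKL the level was higher in Mir182ΔM/ΔM than in WT by 0.34 ± 0.082 (adjusted p = 0.0128), and the call was lost without WT RANKL replicate 2 (0.27, adjusted p = 0.0789) or Mir182ΔM/ΔM RANKL replicate 1 (0.31, adjusted p = 0.0716). Without RANKL the genotypes differed by -0.14 ± 0.082 (adjusted p = 0.48; 0.00443 with the block, lower in Mir182ΔM/ΔM).

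In CPM the chains of the type I receptor thus parted with RANKL in WT, where Ifnar2 was lower and Ifnar1 overlapped with its basal level, while with TMM factors both were lower, Ifnar2 by 0.82. Both responses to RANKL were called different between the genotypes. These contrasts, and those between the genotypes after RANKL, contain the WT RANKL libraries, which stood apart in Lyz2. The part of those libraries in these values was not tested. The interaction, which is the response in Mir182ΔM/ΔM minus that in WT, was 0.34 ± 0.082 for Ifnar1 (adjusted p = 0.0232) and 0.49 ± 0.12 for Ifnar2 (adjusted p = 0.0216). The call for Ifnar1 was lost without 7 of the 8 libraries, all but WT basal replicate 2 (0.30 to 0.36, adjusted p 0.0533 to 0.0841). The call for Ifnar2 was lost without WT basal replicate 1, WT RANKL replicate 2, Mir182ΔM/ΔM RANKL replicate 1 or either Mir182ΔM/ΔM basal library (0.41 to 0.52, adjusted p 0.0523 to 0.0788). Both signs stayed positive in each of these fits. Ifnar2, Ifnar1 and Ifngr2 lie within 192.8 kb of each other on chromosome 16, with Il10rb, a chain of the interleukin-10 receptor, between Ifnar2 and Ifnar1. Il10rb fell with RANKL in both genotypes, by 0.77 ± 0.062 in WT and by 0.66 ± 0.062 in Mir182ΔM/ΔM (adjusted p = 3.9e-05 and 9.8e-05). Ifnar1, its neighbour, was higher with RANKL in Mir182ΔM/ΔM, where Il10rb was lower.

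Both chains of the type II receptor were higher with RANKL in both genotypes. Ifngr1 (chr10:19591949-19610229), the chain that binds IFN-γ, read 234 and 223 CPM in WT basal, 308 and 297 in WT RANKL, 184 and 176 in Mir182ΔM/ΔM basal, 280 and 288 in Mir182ΔM/ΔM RANKL, 161 and 154 in Control and 159 and 149 in Mir182mTg. The 4 RANKL libraries were above the 8 basal ones. The rise was 0.40 ± 0.0595 in WT (adjusted p = 0.00083) and 0.65 ± 0.0595 in Mir182ΔM/ΔM (adjusted p = 8.5e-05). With Control as the base, the WT RANKL libraries were higher by 0.93 ± 0.057 (adjusted p = 9.9e-07), more than 1.5 times the difference against WT basal. With TMM factors the rise in WT was 0.20 (adjusted p = 0.019).

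Without RANKL, the Ifngr1 values of the genotypes did not overlap, as for 5 of the 9 genes and 41.0% of all genes. In that comparison Ifngr1 was lower in Mir182ΔM/ΔM than in WT by 0.34 ± 0.0595 (adjusted p = 0.0281). This call was lost when any 1 of the 8 libraries was left out, with differences of -0.38 to -0.31 and adjusted p of 0.0606 to 0.2, and without both WT RANKL libraries (adjusted p = 0.0611). With the block its adjusted p was 6.3e-08. Both genotypes lay above the 4 libraries of the gain of function experiment. After RANKL, Ifngr1 differed between the genotypes by -0.09 ± 0.0595 (adjusted p = 0.255), called lower with the block (adjusted p = 0.0167), and the sign turned with TMM factors (0.06, adjusted p = 0.411).

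Ifngr2 (chr16:91547072-91565623) is the chain of the type II receptor that carries Jak2. It read 150 and 140 CPM in WT basal and 196 and 194 in WT RANKL. In Mir182ΔM/ΔM it read 131 and 124 CPM basal and 202 and 196 with RANKL. It read 138 and 137 CPM in Control and 136 and 131 in Mir182mTg. As for Ifngr1, the 4 RANKL libraries stood above the 8 basal ones, and here the RANKL libraries of the genotypes overlapped. The rise was 0.42 ± 0.063 in WT (adjusted p = 0.00087; 0.22 with TMM factors, adjusted p = 0.0181) and 0.64 ± 0.063 in Mir182ΔM/ΔM (adjusted p = 0.00013). Between the genotypes the difference was 0.03 ± 0.063 after RANKL (adjusted p = 0.734; 0.18 with TMM factors, adjusted p = 0.0494). Without RANKL it was -0.19 ± 0.063 (adjusted p = 0.201; 0.0002 with the block). The interaction was 0.25 ± 0.084 for Ifngr1 (adjusted p = 0.0717) and 0.22 ± 0.089 for Ifngr2 (adjusted p = 0.129), and both were called with TMM factors, at 0.42 and 0.38 (adjusted p = 0.0092 and 0.0192), and with the block (adjusted p = 9.2e-05 and 0.00058).

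**Figure D2:**
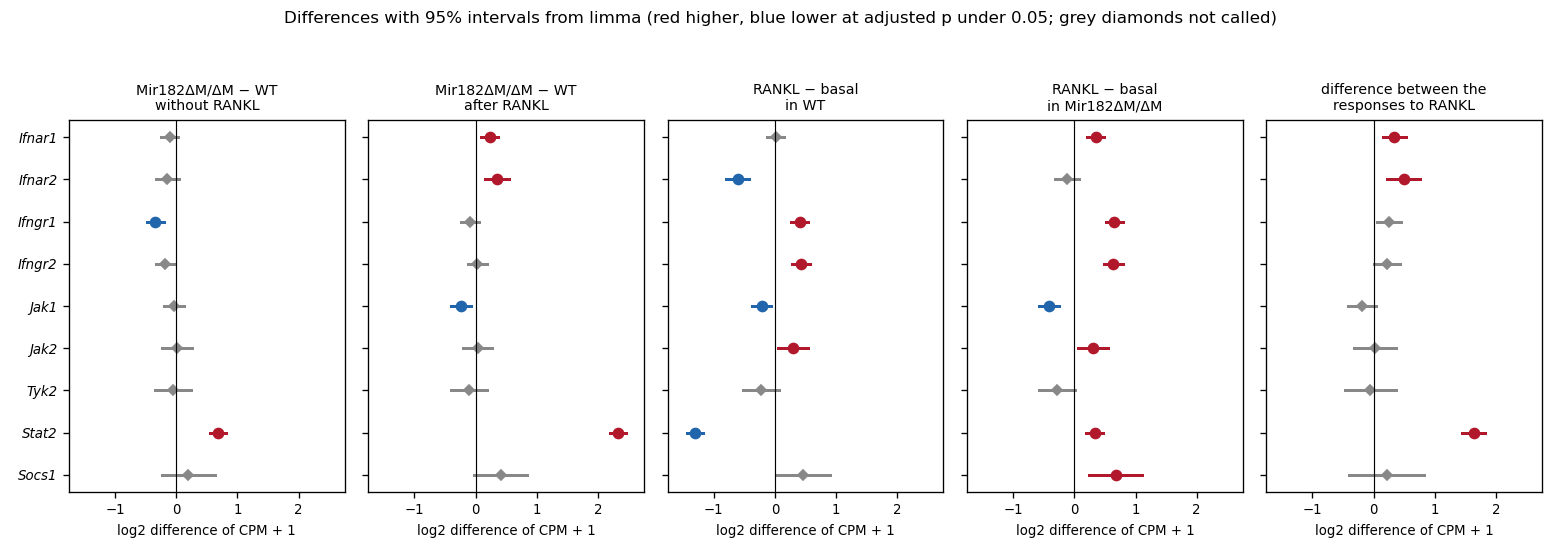
Differences of the 9 genes on the log2(CPM + 1) scale (horizontal axis) in the 5 comparisons of the loss of function libraries, with 95% intervals from limma, red or blue when called and grey when not. Stat2 lies farthest from 0 in 4 of the 5 panels, from -1.31 with RANKL in WT to 2.32 between the genotypes after RANKL.

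Among the kinases, in CPM, Jak1 was lower and Jak2 higher with RANKL in both genotypes, and Jak2 was not called with TMM factors unless blocked, and then in Mir182ΔM/ΔM alone. Jak1 (chr4:101152367-101265282), the kinase shared by the receptors of both IFN types, read 339 and 319 CPM in WT basal, 291 and 274 in WT RANKL, 330 and 309 in Mir182ΔM/ΔM basal, 246 and 235 in Mir182ΔM/ΔM RANKL, 294 and 274 in Control and 297 and 279 in Mir182mTg. The Mir182ΔM/ΔM RANKL libraries were the lowest of the 12, and those of WT RANKL overlapped with Control. Jak1 fell with RANKL by 0.41 ± 0.068 in Mir182ΔM/ΔM (adjusted p = 0.00178) and by 0.22 ± 0.068 in WT (adjusted p = 0.0264). The WT value was lost without WT basal replicate 1 (-0.17, adjusted p = 0.133) or WT RANKL replicate 2 (-0.18, adjusted p = 0.139), and with Control as the base it was -0.01 ± 0.066 (adjusted p = 0.954). With TMM factors it was -0.43 (adjusted p = 0.00112), over 1.5 times the value in CPM.

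After RANKL, Jak1 was lower in Mir182ΔM/ΔM than in WT by 0.23 ± 0.068 (adjusted p = 0.0288). This contrast contains the WT RANKL libraries, whose part in it was not tested. With TMM factors the difference was -0.08 ± 0.065 and not called (adjusted p = 0.377), while with the block it was called lower in CPM (adjusted p = 4.1e-07) and with TMM factors (adjusted p = 0.0154). Without the block, the call in CPM was lost without any 1 of the 4 RANKL libraries (-0.28 to -0.19, adjusted p 0.0559 to 0.147). Without RANKL the genotypes overlapped, with a difference of -0.04 ± 0.068 and a 95% interval from -0.20 to 0.12 (adjusted p = 0.88). The interaction was -0.19 ± 0.097 (adjusted p = 0.204), called lower with the block (adjusted p = 0.00046) but not with the block and TMM factors (-0.02, adjusted p = 0.64).

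Jak2 (chr19:29251828-29313080), which sits on Ifngr2, read 61.0 and 52.5 CPM in WT basal, 73.5 and 65.6 in WT RANKL, 60.5 and 54.1 in Mir182ΔM/ΔM basal, 72.7 and 69.5 in Mir182ΔM/ΔM RANKL, 52.5 and 46.4 in Control and 51.7 and 47.4 in Mir182mTg. The 4 RANKL libraries were above the 8 basal ones, and the genotypes overlapped both with and without RANKL. The rise was 0.29 ± 0.1 in WT (adjusted p = 0.0414; 0.09 with TMM factors, adjusted p = 0.483) and 0.31 ± 0.1 in Mir182ΔM/ΔM (adjusted p = 0.0368; 0.27 with TMM factors, adjusted p = 0.0516, or 2.1e-05 with the block as well). The WT call was lost without WT basal replicate 2, WT RANKL replicate 1 or either Mir182ΔM/ΔM RANKL library (0.18 to 0.29, adjusted p 0.0613 to 0.213). In Mir182ΔM/ΔM it was lost without basal replicate 2 or either RANKL library (0.23 to 0.34, adjusted p 0.0845 to 0.185). The genotypes differed by 0.03 after RANKL (95% interval -0.21 to 0.28, adjusted p = 0.815) and by 0.02 without it (-0.23 to 0.26, adjusted p = 0.977). With TMM factors the difference after RANKL was 0.18 (adjusted p = 0.182), called higher with the block as well (adjusted p = 0.00108), and so was the interaction of 0.18 (adjusted p = 0.44 without and 0.0183 with the block).

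Tyk2 (chr9:21104068-21131243), the kinase on Ifnar1, read 129 and 152 CPM in WT basal, 109 and 130 in WT RANKL, 125 and 146 in Mir182ΔM/ΔM basal, 106 and 116 in Mir182ΔM/ΔM RANKL, 99.2 and 113 in Control and 99.6 and 115 in Mir182mTg. Replicate 2 exceeded replicate 1 in all 6 conditions, by ratios of 1.09 to 1.19, and all 5 pairs of neighbouring conditions overlapped. Tyk2 was called in none of the 5 comparisons in CPM without the block, and with TMM factors it was called lower with RANKL in WT (-0.44, adjusted p = 0.0216). Its largest differences in CPM were -0.28 ± 0.12 with RANKL in Mir182ΔM/ΔM (adjusted p = 0.0897) and -0.23 ± 0.12 with RANKL in WT (adjusted p = 0.145). Once the shift between the replicate numbers was taken out by the block, both were called lower (adjusted p = 7.4e-07 and 1e-05), as was the difference of -0.10 between the genotypes after RANKL (adjusted p = 0.0169), whose sign turned with TMM factors. With Control as the base, the WT RANKL libraries differed by 0.17 (adjusted p = 0.287), the opposite sign.

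Stat2 had the widest range of the 9. The gene (chr10:128270559-128292849), which brings the activation domain to ISGF3, read 183 and 177 CPM in WT basal, 71.3 and 72.7 in WT RANKL, 292 and 286 in Mir182ΔM/ΔM basal, 370 and 358 in Mir182ΔM/ΔM RANKL, 111 and 112 in Control and 110 and 110 in Mir182mTg. From high to low the order was Mir182ΔM/ΔM RANKL, Mir182ΔM/ΔM basal, WT basal, Control, Mir182mTg and WT RANKL, and no neighbouring conditions overlapped. The 4 Mir182ΔM/ΔM libraries were above the other 8, and the WT RANKL libraries were the lowest.

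Without RANKL, Stat2 was higher in Mir182ΔM/ΔM than in WT by 0.68 ± 0.056 (adjusted p = 0.00175), a ratio of 1.61 between the means of 289 ± 4.42 and 180 ± 4.29 CPM (SD, n = 2 each). Without the WT RANKL libraries in the fit this difference had an adjusted p of 0.006. RANKL raised it in Mir182ΔM/ΔM by 0.33 ± 0.056 (adjusted p = 0.00197), again with no WT RANKL library in the contrast. In WT it fell with RANKL by 1.31 ± 0.056 on the log2 scale (adjusted p = 1.9e-06), a ratio of 0.401. Set against the Control libraries the WT RANKL libraries were lower by less, -0.63 ± 0.047 (adjusted p = 4.2e-06).

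After RANKL, Stat2 was higher in Mir182ΔM/ΔM than in WT by 2.32 ± 0.056 (adjusted p = 6.4e-07), a ratio of 5.05 between 364 ± 8.54 and 72 ± 1.0 CPM (SD, n = 2 each). The interaction was 1.64 ± 0.08 (adjusted p = 3.9e-05). All of these calls held without any single library, over ranges of 0.66 to 0.71 between the genotypes without RANKL and 2.30 to 2.35 after it. The differences after RANKL, in WT and in the interaction rest on the WT RANKL libraries, which stood apart in Lyz2. Stat2 and Lyz2 lie on chromosome 10, with 11 Mb from the first base of Lyz2 to the last of Stat2. The part of this in the Stat2 values was not tested, and the Stat2 differences that use no WT RANKL library were both higher, at 0.68 and 0.33.

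Over the 12 libraries, 3 genes had the pattern most like that of Stat2 among 11793 genes compared, by Pearson's r of log2(CPM + 1) with each replicate number centred on its own mean: Pde7b (r = 0.9915), a phosphodiesterase, Mocos (r = 0.9804), which matures the molybdenum cofactor of enzymes, and Sp100 (r = 0.9795), a nuclear body protein. These r values describe 12 libraries of 6 conditions that share depth and batch, and no p is given. Pde7b read 16 ± 2.29 CPM in WT basal, 5.15 ± 0.0548 in WT RANKL, 23.7 ± 1.75 in Mir182ΔM/ΔM basal, 31.0 ± 1.52 in Mir182ΔM/ΔM RANKL, 8.06 ± 0.338 in Control and 6.88 ± 0.0637 in Mir182mTg (SD, n = 2 each). Like Stat2 it was lowest in WT RANKL and highest in Mir182ΔM/ΔM RANKL.

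Socs1 (chr16:10782240-10785536), the inhibitor, was near the limit of detection. It had 18 and 9 reads in WT basal, 25 and 28 in WT RANKL, 11 and 26 in Mir182ΔM/ΔM basal, 60 and 35 in Mir182ΔM/ΔM RANKL, 20 and 14 in Control and 33 and 18 in Mir182mTg. In CPM the Mir182ΔM/ΔM RANKL libraries, at 1.97 and 1.38, were above the other 10, the highest of which was WT RANKL replicate 2, at 1.01. The lowest conditions were WT basal, at 0.550 and 0.361, and Control, at 0.638 and 0.529, and 4 of the 5 neighbouring pairs overlapped. RANKL raised Socs1 in Mir182ΔM/ΔM by 0.67 ± 0.19 (adjusted p = 0.0172), a call that was lost without basal replicate 1 (0.43, adjusted p = 0.0904) or RANKL replicate 1 (0.51, adjusted p = 0.0973). In WT the difference was 0.46 ± 0.19 (adjusted p = 0.0625), called with the block (adjusted p = 0.0125) or without either Mir182ΔM/ΔM basal library (adjusted p = 0.0311 and 0.0313). After RANKL the genotypes differed by 0.41 ± 0.19 (adjusted p = 0.114), called with the block (adjusted p = 0.0288).

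The 5 comparisons share libraries with each other, so their values are not independent. In the comparison of genotypes without RANKL, 2 of the 9 genes were called, Stat2 higher and Ifngr1 lower. Over all genes, 3.81% were called, of which 317 (2.71%) were higher and 129 (1.1%) lower. The median difference of the 9 was -0.05, beside 0.01 over all genes, and the receptors and kinases ran from -0.34 to 0.02. With the block 5 of the 9 were called, 1 higher and 4 lower, against 31.2% of all genes.

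After RANKL, 4 of the 9 were called between the genotypes, Ifnar1, Ifnar2 and Stat2 higher in Mir182ΔM/ΔM and Jak1 lower. This share is close to that of all genes, of which 45.1% were called, 14.3% higher (1668) and 30.9% lower (3607), so it is not a result about the 9. The scale matters here: the median of all genes was -0.14 in CPM and -0.00 with TMM factors, which gave 2438 higher and 2362 lower and called 4 of the 9, against 41.1% of all genes. With TMM factors the differences were 0.39 for Ifnar1, 0.50 for Ifnar2, 2.47 for Stat2 and -0.08 for Jak1. With the block 7 of the 9 were called, against 73.2% of all genes.

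The response to RANKL called 6 of the 9 in WT, against 62.5% of all genes (40.6% higher and 22.0% lower), and 7 of the 9 in Mir182ΔM/ΔM, against 56.8% (30.4% higher and 26.4% lower). The share in WT is near that of all genes. In Mir182ΔM/ΔM 6 of the 9 were higher and 1 lower, beside those 30.4% and 26.4%. With only 9 genes, these counts are a description. With the block 8 and 9 of the 9 were called, against 81.8% and 79.0%. With Control as the base for WT 5 of the 9 were called, against 52.6%. In WT, Ifngr1, Ifngr2 and Jak2 rose and Ifnar2, Jak1 and Stat2 fell. In Mir182ΔM/ΔM, Ifnar1, Ifngr1, Ifngr2, Jak2, Stat2 and Socs1 rose and Jak1 fell. All genes in WT split into 4741 higher and 2571 lower in CPM and 3369 higher and 3562 lower with TMM factors, since their median was 0.19 and -0.00. With TMM factors Ifnar1 was lower with RANKL in WT by 0.20 ± 0.056 (adjusted p = 0.0198) and Tyk2 by 0.44 ± 0.13 (adjusted p = 0.0216), and Jak2 was not called, which made 7 of the 9 called against 59.3%. In Mir182ΔM/ΔM 6 of the 9 were called with TMM factors, against 56.9%. The comparisons within the genotypes move with the osteoclast markers, which rose in both, to 9900 CPM or more in WT and to 3050 or more in Mir182ΔM/ΔM. The comparison of the genotypes after RANKL and the interaction also span this difference in markers. The part of these markers in the members' values was not tested. For the interaction 3 of the 9 were called, Ifnar1, Ifnar2 and Stat2, all higher, against 24.6% of all genes, 7.44% higher (870) and 17.1% lower (2005). With TMM factors 5 of the 9 were called, all higher, against 21.5% (1239 higher and 1274 lower). With the block 6 of the 9 were called, against 58.9%.

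**Figure D3:**
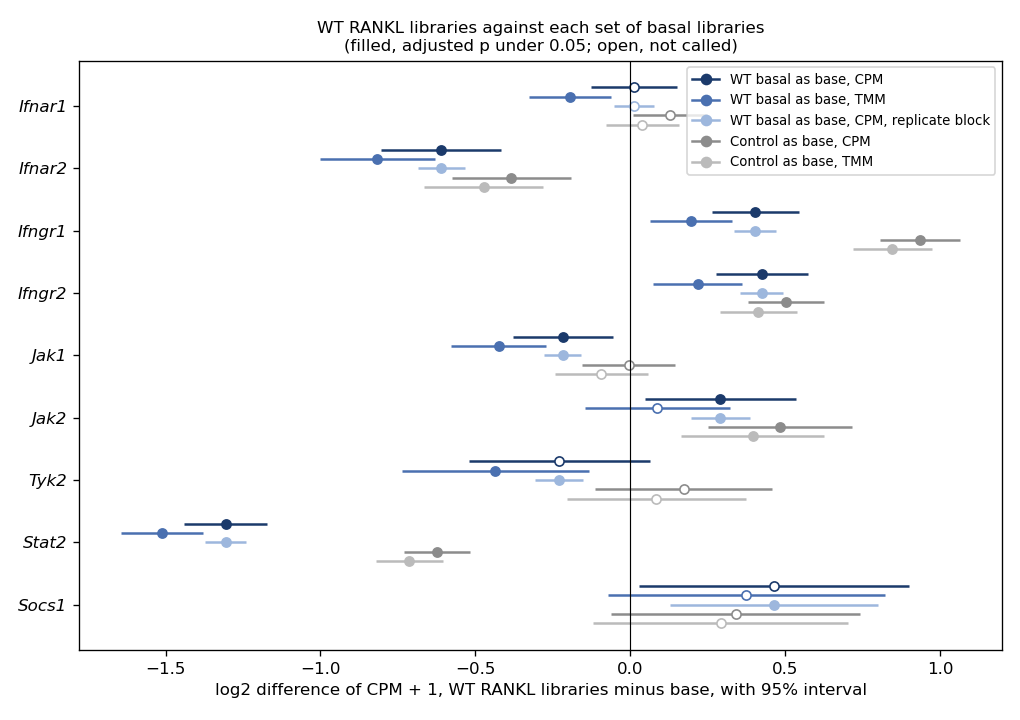
Difference of the WT RANKL libraries from WT basal or from Control libraries, on the log2(CPM + 1) scale with 95% intervals from limma (horizontal axis), for the 9 genes, filled when called. Stat2 is -1.31 against WT basal and -0.63 against Control, Ifngr1 0.40 and 0.93, and Jak1 -0.22 and -0.01.

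No difference between Mir182mTg and Control BMMs was detected in the 9 genes. edgeR called 0 of the 9 at an adjusted p under 0.05 and 0 at an unadjusted p under 0.05, against 0.257% of 12081 genes called over all, 12 higher and 19 lower. DESeq2 and limma also called 0. Socs1, with 20 and 14 reads in Control and 33 and 18 in Mir182mTg, differed most, by 0.49, and was not called. With 1 library left out its difference ran from 0.12 to 0.76. Of the genes other than Socs1, Ifnar1 differed most, by -0.09 ± 0.069, and its libraries did not overlap. The same held for 4 of the 9 in all, against 32.1% of all genes. Limma's 95% intervals on log2(CPM + 1) ran from -0.25 to 0.10 for Ifnar1, from -0.20 to 0.14 for Stat2 and from -0.17 to 0.21 for Jak1. Stat2 read 111 and 112 CPM in Control and 110 and 110 in Mir182mTg. Eif2ak2, the gene of the double-stranded RNA kinase PKR, read 121 and 111 CPM in Control and 77.9 and 72.7 in Mir182mTg. The Mir182mTg libraries were the lowest of the 12 for that gene, while 8 of the 9 genes differed by less than 0.1 on the log2 scale.

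The rest of the pathway was read from lists. Of 19 IFN ligand genes, 18 had no read in any library. Ifnb1, the gene of IFN-β, had no reads in the WT libraries, 1 and 2 in Mir182ΔM/ΔM basal, 3 and 5 in Mir182ΔM/ΔM RANKL, 0 and 1 in Control and none in Mir182mTg. At most 5 reads in a library, or 0.197 CPM, leave its level near the limit of 3 reads, so no fold is given.

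Irf9, the DNA-binding partner of Stat2 in ISGF3, was higher in Mir182ΔM/ΔM after RANKL as well. Irf9 read 78.3 and 74.3 CPM in WT basal, 59.6 and 64.8 in WT RANKL, 95.4 and 93.1 in Mir182ΔM/ΔM basal and 107 and 111 in Mir182ΔM/ΔM RANKL, and was higher in Mir182ΔM/ΔM by 0.80 ± 0.07 after RANKL (adjusted p = 0.00012). Without RANKL its difference was 0.30 ± 0.07 (adjusted p = 0.0684; 2.4e-05 with the block). With RANKL it fell in WT by 0.29 ± 0.07 (adjusted p = 0.00844). It rose in Mir182ΔM/ΔM by 0.21 ± 0.07 (adjusted p = 0.038), a call that was lost with TMM factors (0.17, adjusted p = 0.0735). Irf9 read 64.4 and 64.5 CPM in Control and 63.5 and 63.4 in Mir182mTg, and the WT RANKL libraries overlapped with Control. The Irf9 differences in WT and after RANKL rest on the WT RANKL libraries, which stood apart in Lyz2.

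**Figure D4:**
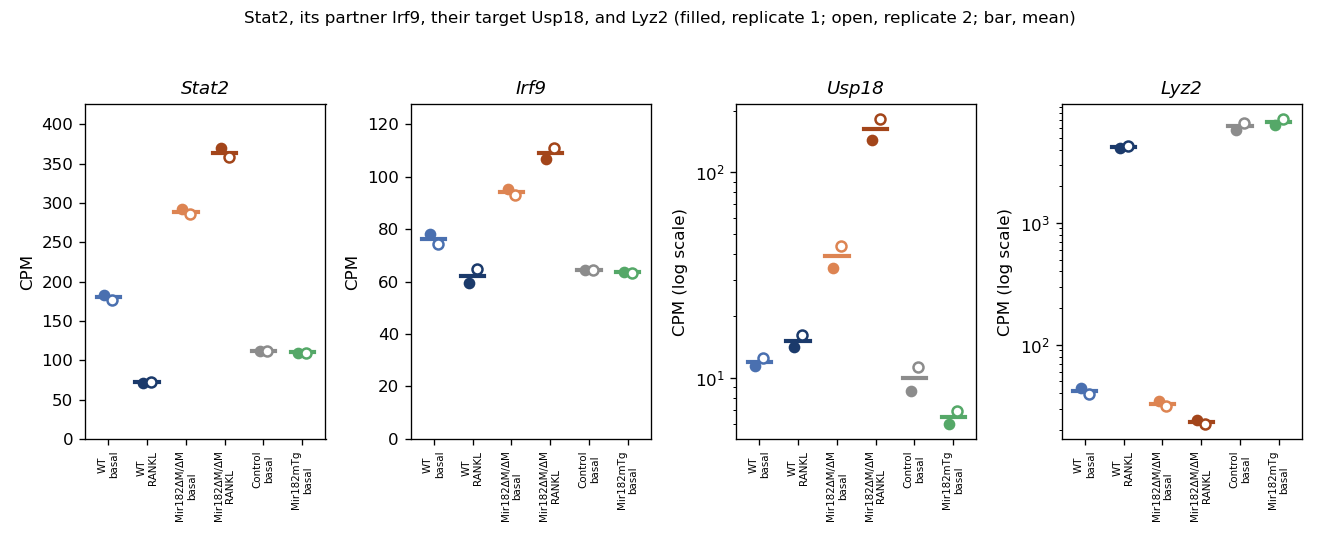
CPM of Stat2, Irf9, Usp18 and Lyz2 (vertical axes, logarithmic for Usp18 and Lyz2) in the 6 conditions, with filled points for replicate 1, open points for replicate 2 and bars for means. Stat2, Irf9 and Usp18 are highest in Mir182ΔM/ΔM RANKL, while Lyz2 is at 4117 to 7062 CPM in WT RANKL, Control and Mir182mTg and at 22.5 to 44.0 in the rest.

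Textbook targets of ISGF3 were higher in Mir182ΔM/ΔM in 12 of 13 without RANKL, with a median of 1.40, and in 13 of 13 after RANKL, with a median of 3.64. Over all genes the medians were 0.01 and -0.14. Without RANKL the largest were Xaf1 (2.48), an apoptosis cofactor, the antiviral genes Mx1 (1.69) and Rsad2 (1.64), and Usp18 (1.62), a protease that removes Isg15 and dampens signalling at Ifnar2. After RANKL they were Irf7 (4.74), a transcription factor for type I IFN genes, Ifit3 (4.40), Ifit2 (4.24) and Xaf1 (4.18). RANKL raised 13 of 13 in Mir182ΔM/ΔM, led by Irf7 (3.12) and Isg15 (2.51). Against WT basal it lowered 9 of 13 in WT, led by Ifit2 (-1.77) and Mx1 (-0.91), with none higher (1 higher and 11 lower with the block). Against Control no such fall was seen: the WT RANKL mean was above that of Control for each target but Oas1a, at 32.9 CPM in both. Ifit2 read 18.7 CPM in WT RANKL against 16.3 in Control, and Mx1 8.59 against 5.92. The libraries of these conditions overlapped for Ifit2, Mx2, Oas1a and Xaf1, and the differences from Control were not tested. In the interaction 12 of 13 were higher. In Mir182mTg all 13 values were negative, from -0.69 to -0.20. edgeR called 0 of them, with 9 at an unadjusted p under 0.05, and 10 were called lower with the block, by which 15.1% of all genes were called. These targets were chosen with earlier results of these data known, so their direction is a description.

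Textbook targets of IFN-γ and GAS were split, and this list does not separate the IFN types. The paper names Cxcl10 among type I IFN response genes, and Ifng had no read in any library. Over all genes, 14.3% were higher and 30.9% lower in Mir182ΔM/ΔM after RANKL. After RANKL, 8 of 10 were higher in Mir182ΔM/ΔM, led by the chemokine genes Cxcl10 (4.81) and Cxcl9 (3.01), the guanylate-binding protein gene Gbp2 (3.61) and the Fc receptor gene Fcgr1 (2.97), which is also among the macrophage markers. The 2 that were lower, named after their values were seen, were Ciita (-2.51), the activator of MHC class II genes, and Irf8 (-0.82), a factor that opposes osteoclast formation. Without RANKL 5 of 10 were higher, led by Cxcl10 (1.03) and Gbp3 (0.75), and Icam1 (-0.38) was lower. RANKL raised 5 and lowered 3 of 10 in WT, where Fcgr1 (-2.58) and Ciita (2.41) moved most, and raised 7 and lowered 1 in Mir182ΔM/ΔM, where Cxcl10 (5.09) rose most and Irf8 (-2.30) fell, and where TMM factors or the block each called 2 lower. In the interaction 8 were higher and 2 lower. In Mir182mTg edgeR called 0 of 9, with 2 at an unadjusted p under 0.05, and with the block 1 was higher and 1 lower. Guanylate-binding protein genes belong to families of near-identical copies, among which reads can be split.

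The other STATs tested were split. Of Stat3, Stat4, Stat5a, Stat5b, Stat6 and Irf9, 2 were higher and 2 lower in Mir182ΔM/ΔM after RANKL, among them Stat4 (-0.90) and Stat5a (-0.57). Without RANKL limma called 0 of 6, with 1 at an unadjusted p under 0.05, and 1 was called higher and 1 lower with the block. RANKL lowered 5 of 6 in WT and 4 of 6 in Mir182ΔM/ΔM, and Stat4, which serves interleukin-12 signalling, fell most in both, by 2.72 and by 3.42. With TMM factors none of the 6 was called higher in Mir182ΔM/ΔM with RANKL, where CPM gave 2. In the interaction 2 were higher and 2 lower, or 2 and 1 with TMM factors. In Mir182mTg edgeR called 0 of 6, with 1 at an unadjusted p under 0.05 and 1 called higher with the block. Jak3, the kinase of receptors with the common gamma chain, differed by -0.23 ± 0.12 between the genotypes after RANKL (adjusted p = 0.164; 0.00358 with the block, lower) and fell with RANKL in Mir182ΔM/ΔM by 0.40 ± 0.12 (adjusted p = 0.0238). In WT its difference with RANKL was -0.25 ± 0.12 (adjusted p = 0.105), called lower with TMM factors (-0.45, adjusted p = 0.0147) and with the block (adjusted p = 0.00129). In Mir182mTg it was -0.21 ± 0.12 (edgeR adjusted p = 0.933; 0.0175 with the block, lower).

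Among the other negative regulators, 15 of 16 were tested. In CPM after RANKL 2 were higher and 4 lower in Mir182ΔM/ΔM, where 14.3% and 30.9% of all genes were. With TMM factors 3 were higher and 2 lower, and with the block 3 and 7. The largest differences among those called in CPM were Usp18 (3.34), which the ISGF3 list also holds, Socs2 (-1.39), Socs5 (0.56) and Ptpn1 (-0.50), a phosphatase of JAK kinases. Without RANKL only Usp18 was called, and 4 more were called lower with the block. Usp18 read 11.4 and 12.5 CPM in WT basal, 14.1 and 16.2 in WT RANKL, 34.5 and 44.0 in Mir182ΔM/ΔM basal and 144 and 181 in Mir182ΔM/ΔM RANKL. RANKL raised 4 and lowered 3 in WT, and raised 5 and lowered 3 in Mir182ΔM/ΔM, with Socs3, an inhibitor of interleukin-6 type signalling, higher in both (0.71 and 0.89). With the block 7 were raised in each genotype, with 3 lowered in WT and 5 in Mir182ΔM/ΔM. In the interaction 2 were higher and 1 lower, or 2 and 4 with the block. In Mir182mTg edgeR called 0 of 15, with 3 at an unadjusted p under 0.05 and 2 called lower with the block.

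Other receptors that signal through JAKs moved in both directions. Of 17 listed, 15 were tested. After RANKL 9 were lower and 2 higher in Mir182ΔM/ΔM in CPM, with a median of -0.35 beside -0.14 over all genes, of which 30.9% were lower and 14.3% higher. With TMM factors 7 were lower and 4 higher, with a median of -0.21 beside -0.00 over all genes. The largest were Il12rb1 (-1.56), a chain of the interleukin-12 receptor, Csf2rb (-1.15), a chain of the GM-CSF receptor, Csf2rb2 (-1.04), and Lifr (-1.02), the receptor of leukemia inhibitory factor. Csf2rb and Csf2rb2 are near-identical copies, so reads may be divided between them. Without RANKL limma called 0 of 15, with 6 at an unadjusted p under 0.05, all lower, and 8 were called lower with the block. RANKL raised 5 and lowered 7 in WT and raised 4 and lowered 9 in Mir182ΔM/ΔM, and in the interaction 1 was higher and 6 lower (2 and 4 with TMM factors, 5 and 8 with the block). In Mir182mTg 1 of 15 was called, Csf2rb2, higher by 0.81 (edgeR adjusted p = 0.0364). With the block 6 were called higher and 3 lower, against 15.1% of all genes.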

How the data were processed

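RNA-seq of 12 libraries was analysed from the deposited tables, with groups and replicate numbers taken from the labels. The methods name poly-A selection, alignment to mm10 by TopHat or HISAT2, HTSeq for raw counts, edgeR for CPM and Cufflinks for RPKM, without versions. The submitters' processing notes list TopHat and Cufflinks for replicate 1 and HISAT2, HTSeq and edgeR for replicate 2. For the 8 loss of function libraries the deposited values are CPM, which sum to 1000000 in each library and are whole multiples of 1 read within 0.01 for 100.0% of values, so whole reads were recovered. For the 4 gain of function libraries they deposited counts, scaled here to CPM for levels. The RPKM deposited for replicate 1 equal CPM divided by 1 length per gene, within 1% for 100.0% of 10699 genes, and only that length was used. The gene names include 27 that read as dates.

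The loss of function libraries were tested with limma 3.58.1 (lmFit, eBayes with trend, R 4.3.3) on log2(CPM + 1), which understates changes of low genes, over 11691 genes with 1 CPM or more in at least 2 of 8 libraries, in 1 fit. Counts were tested with edgeR 4.0.16 (TMM, filterByExpr, quasi-likelihood) over 12081 genes. P-values were adjusted by Benjamini-Hochberg over all genes, with a threshold of 0.05 and no fold limit. An edgeR SE was taken as the size of the fold change over the root of F. DESeq2 1.42.0 and edgeR on recovered reads were among the alternatives. Scripts were tested on simulated data.

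The 9 genes, the lists and the check genes Lyz2 and Ifi202b were chosen with earlier results of these data known. The named genes are all 9, the up to 4 called genes with the largest difference in each list, and the 3 genes most like Stat2. Some listed genes are not reported here and were left out of the counts. Since the replicate number marks RNA type and aligner in the labels, it pairs the libraries. The deviations of replicate 2 from replicate 1 correlated between conditions at r = 0.692 to 0.758 over 7 pairs of groups, and Rn45s, a ribosomal RNA precursor, was 10.8 to 18.8 times higher in replicate 2. The added alternatives, without the WT RANKL libraries and with Control in place of WT basal, were chosen after seeing the data. Intervals and the 3-read limit do not cover errors of annotation or counting rules.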

Additional observations from a re-analysis of the deposited data

Results flagged for a closer look

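The response to RANKL was called different between Mir182ΔM/ΔM and WT, by the test of the difference itself in limma, for 3 of the 9 genes. For Ifnar1 the response in Mir182ΔM/ΔM exceeded that in WT by 0.34 on the log2 scale (adjusted p = 0.0232). For Ifnar2 the difference was 0.49 (adjusted p = 0.0216), and for Stat2 it was 1.64 (adjusted p = 3.9e-05). Each contains the WT RANKL libraries, in which Lyz2 read 4117 and 4288 CPM, and their part in these differences was not tested. No sample was tested as an outlier, since no condition has 4 libraries.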

How the results depend on the processing

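For the 9 genes and 6 comparisons, 441 of 526 values under other settings kept both direction and side of the threshold, 20 lost the call, 39 gained it and 26 changed sign. With each library left out in turn, these were 325, 40, 2 and 29 of 396. Stat2 kept its direction and call in the 5 loss of function comparisons under all of these settings. The block by replicate number, which the labels justify, raised the members called from 4 to 7 after RANKL and from 2 to 5 without RANKL, with or without TMM factors. In the interaction it raised them from 3 to 6 in CPM and from 5 to 6 with TMM factors. In CPM the block raised all genes called from 5275 to 8555 after RANKL, from 446 to 3651 without RANKL and from 2875 to 6889 in the interaction. In Mir182mTg against Control it raised the genes called from 31 to 1822 with none of the 9 among them. No crossed pairing was needed. With the libraries of a comparison alone, 2 members were called after RANKL and 1 without RANKL, where 54 genes were called in all. Without the WT RANKL libraries 1 member and 286 genes were called without RANKL. In the interaction TMM factors, edgeR and DESeq2 each called 5 members. For Mir182mTg, DESeq2 called 130 genes, limma 50 and no filter 141, none of the 9 among them.

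Signs changed for the values below, some of which were not near 0, and the cause was not tested. After RANKL, TMM factors, edgeR, DESeq2 and the block with TMM factors gave 0.063, 0.058, 0.054 and 0.063 for Ifngr1, and 0.048, 0.039, 0.035 and 0.048 for Tyk2. Without RANKL, quantile normalization, edgeR and DESeq2 gave -0.0039, -0.0013 and -0.0087 for Jak2. With RANKL in WT, TMM factors, quantile normalization, edgeR, DESeq2 and the block with TMM factors gave -0.20, -0.085, -0.20, -0.18 and -0.20 for Ifnar1, while Control as the base gave 0.17 for Tyk2, or 0.083 with TMM factors. In the interaction these same 5 settings gave 0.12, 0.0055, 0.11, 0.11 and 0.12 for Tyk2. In Mir182mTg, upper-quartile factors, library totals and limma gave 0.010, 0.0020 and 0.0035 for Jak2.

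With 1 library left out, the members called ran from 1 to 4 after RANKL, were 1 in each case without RANKL, and ran from 5 to 7 with RANKL in WT, from 5 to 7 in Mir182ΔM/ΔM, from 1 to 3 in the interaction and stayed at 0 in Mir182mTg. All genes called without RANKL then ran from 102 to 282, and in Mir182mTg from 42 to 133. These fits had no block, so a shift between the replicate numbers, as in Tyk2, enters their values. Values that crossed 0 ranged after RANKL from -0.048 to 0.11 for Jak2 and -0.23 to 0.020 for Tyk2. Without RANKL they ranged from -0.088 to 0.0061 for Jak1, -0.090 to 0.12 for Jak2, -0.17 to 0.062 for Tyk2 and -0.046 to 0.44 for Socs1. With RANKL in WT, Ifnar1 ranged from -0.031 to 0.054. In the interaction the ranges were -0.090 to 0.12 for Jak2, -0.18 to 0.072 for Tyk2 and -0.032 to 0.45 for Socs1. In Mir182mTg they were -0.13 to 0.059 for Ifnar2, -0.098 to 0.0069 for Ifngr1, -0.038 to 0.063 for Jak1, -0.087 to 0.085 for Jak2 and -0.096 to 0.11 for Tyk2. Depth limits Socs1, at 9 to 60 reads, and Ifnb1, at 5 or fewer reads.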
